A study of Mus musculus with 6 samples.

Results

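Genes that are widely used as surface or activity markers of epithelial cells and of cells with stem-like properties were followed in 393P cells with and without ectopic ZEB1. The 9 genes were Epcam, Cd24a, Muc1, Cd44, Prom1, Cd9, Aldh1a1, Ceacam1 and Ly6a. They were taken by symbol from the 24214 gene features in the count tables, with earlier results of these data known. Of these features 13892 passed the filter on low counts and were tested, among them 8 of the 9 markers, and Prom1 did not pass. 393P is an epithelial line derived from a murine lung adenocarcinoma, labelled as KP lung cancer cells of strain C57BL/6. The 2 groups were 393P_vector, transfected with the empty vector, and 393P_ZEB1, transfected with a ZEB1 expression vector, each with 3 RNA-seq samples of total RNA, and both were grown in RPMI-1640 medium with serum. The transfectants were stable and drug-selected. The promoter of the vector, the number of clones in each line and the origin of the 3 samples of a group (separate cultures or not) are not given in the sources used here, so p-values measure only the spread between these samples, which may be technical.

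ZEB1 is a zinc finger transcription factor that binds E-box sequences and represses epithelial genes, and it is best known as a driver of epithelial-to-mesenchymal transition (EMT), in which cells give up their junctions and gain motility. Surface proteins change during EMT, and several of them serve as antibody targets for sorting tumor cells: EpCAM, CD24 and MUC1 are typical of epithelial cells, whereas CD44, CD133 (the product of Prom1), Sca-1 (the product of Ly6a) and the activity of the enzyme ALDH1A1 are used to enrich cells that form tumors or spheres. Such markers are read on the protein in most studies, and the values here are of RNA.

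Of the 8 markers tested, 4 were lower in 393P_ZEB1 (Epcam, Ly6a, Muc1 and Ceacam1), 2 were higher (Aldh1a1 and Cd24a) and 2 were not called (Cd44 and Cd9), at an adjusted p of 0.05 from edgeR. Among all genes tested, 37.6% were called, 19.3% as lower and 18.3% as higher in 393P_ZEB1. The median log2 fold change was -0.55 over the 8 markers and -0.02 over all genes tested. The values of the groups did not overlap for 6 of the 8, the same 6 that were called, and 52.8% of all genes tested had groups that did not overlap. Levels are given as CPM, counts scaled to library sizes normalized by the TMM method, with the SD over 3 samples. With 3 samples against 3, the smallest p that the exact permutation test of a single gene can give is 0.1.

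**Figure D1:**
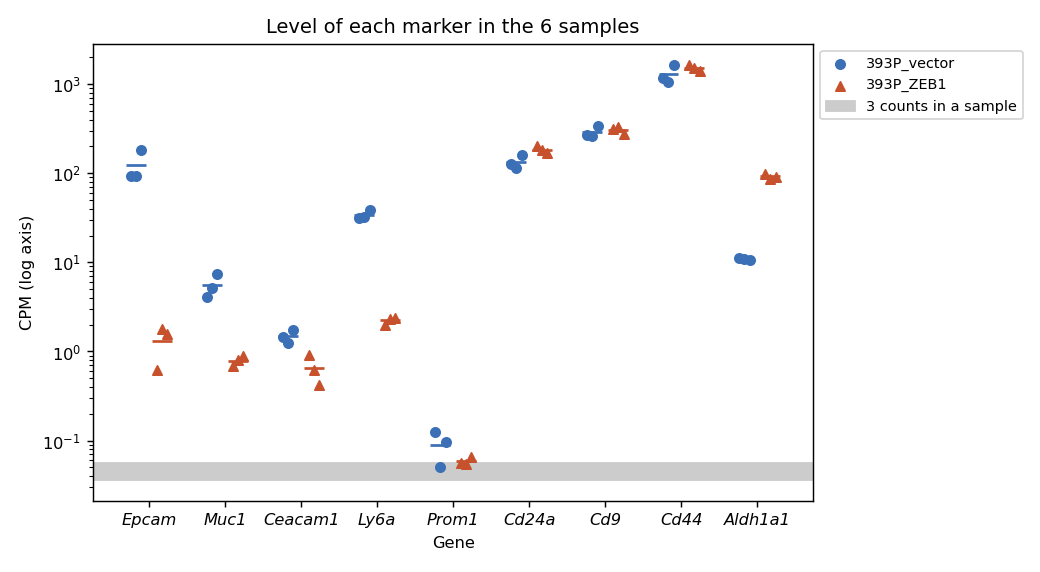
Level of each of the 9 markers in each sample, in CPM on a log axis, with circles for the 3 samples of 393P_vector, triangles for the 3 samples of 393P_ZEB1 and a short line at each group's mean. The grey band is the level of 3 counts in a sample, where 3 of the 6 Prom1 values lie, and only Cd9, Cd44 and Prom1 have groups that overlap.

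Total counts lay between 54442450 and 79158012 per sample. In Zeb1 itself, the check of the labels, the level was between 21.2 and 22.0 CPM in 393P_vector and between 48.9 and 54.9 CPM in 393P_ZEB1 (log2 fold change 1.26 ± 0.10, edgeR adjusted p = 6.06e-05), a count that may include reads from the vector. Replicate 3 of 393P_vector stood apart from the other samples: 8.98% and 9.93% of genes differed from replicates 1 and 2 by at least 2-fold, against 2.77% between replicates 1 and 2. The lines also differed by chromosome, with median log2 fold changes from -0.43 on chromosome 17 to 0.64 on the chromosome with the highest, and counts on Y-linked genes were between 5929 and 10837 in 393P_vector and between 73 and 82 in 393P_ZEB1. The part of these differences in the results was not tested. Of 14 epithelial markers 13 were lower and 1 was not called, and of 9 mesenchymal markers 8 were higher and 1, Acta2, was lower (log2 fold change -2.21, edgeR adjusted p = 0.000102). Of 8 lung lineage markers 2 were tested: Foxj1, a gene of ciliated cells, was lower, from 2.79 to 0.186 CPM (log2 fold change -3.89, edgeR adjusted p = 7.35e-05), and Ager was not called, at 0.499 and 0.277 CPM. Of the 6 that did not pass the filter, Scgb1a1 was at 0 in all samples and the others, Nkx2-1, Sftpa1, Sftpb, Sftpc and Hopx, had group means of at most 0.0476 CPM. The summed level of the 7 leukocyte markers was at most 4.90 CPM in 393P_vector and 2.16 CPM in 393P_ZEB1, that of the 5 endothelial markers at most 3.13 and 1.40 CPM, and that of the 7 fibroblast markers at most 3.27 and 3.61 CPM.

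The promoters of 7 of the 9 markers were in the RefSeq set for GRCm38.p6 and were searched for CAGGTG, the E-box form that ZEB1 is known to bind, and for its reverse complement CACCTG, from 250 bases before to 50 bases after each start. Such a motif was present in 20.2% of the 32851 promoters of the set and in 18.2% of the 12490 promoters of genes tested, and 2.88% of the set held more than 1. The windows of Epcam and Muc1, which both fell, held 2 each. The single window of Cd9, which was not called, held 1, and those of Cd44 and Ceacam1 held none. Aldh1a1, which rose, has 2 annotated starts and held 1 motif in each window, and Prom1 held 1 in the window of 1 of its 2 starts. Of the Aldh1a1 windows, that at chr19:20492333-20492582 lies before the counted gene, which begins at 20601982. In the other Aldh1a1 window the motif began 16 bases after the start. The 250 bases before the start of Epcam, Muc1 and Cd9 are shown, 5′ to 3′ on the strand of the gene and with the motif in capitals, because they place markers that fell and a marker that was not called side by side. A match is a description of the letters and does not show that a factor binds there.
Epcam, chr17:87635729-87635978, plus strand: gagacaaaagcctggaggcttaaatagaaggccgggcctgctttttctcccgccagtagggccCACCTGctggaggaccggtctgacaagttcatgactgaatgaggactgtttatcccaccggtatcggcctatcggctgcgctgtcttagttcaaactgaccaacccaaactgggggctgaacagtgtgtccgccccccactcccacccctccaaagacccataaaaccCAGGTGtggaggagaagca
Muc1, chr3:89228806-89229055, plus strand: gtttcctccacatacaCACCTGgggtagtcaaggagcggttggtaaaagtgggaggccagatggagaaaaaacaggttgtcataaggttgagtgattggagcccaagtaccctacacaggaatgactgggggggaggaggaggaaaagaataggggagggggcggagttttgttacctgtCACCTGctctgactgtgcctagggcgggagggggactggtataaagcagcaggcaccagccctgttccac
Cd9, chr6:125494761-125495010, minus strand: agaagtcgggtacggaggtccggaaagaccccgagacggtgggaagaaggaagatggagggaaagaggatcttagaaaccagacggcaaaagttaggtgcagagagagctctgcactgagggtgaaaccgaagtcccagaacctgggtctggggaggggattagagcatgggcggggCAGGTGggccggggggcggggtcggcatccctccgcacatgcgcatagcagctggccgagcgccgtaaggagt

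The motifs began 187 and 19 bases before the start in Epcam, 234 and 70 bases before it in Muc1 and 73 bases before it in Cd9. Among the markers with a window, the motif was found in some that were lower, higher and not called. Ly6a and Cd24a had no window. Whether the motif bears on the levels was not tested.

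Epcam encodes a transmembrane glycoprotein that mediates contact between epithelial cells and is the usual target for the capture of carcinoma cells. The gene lies at chr17:87635979-87651127 on the plus strand of GRCm38. Its level in 393P_vector replicates 1 to 3 was 92.6, 92.2 and 182 CPM, and in 393P_ZEB1 replicates 1 to 3 it was 0.617, 1.76 and 1.56 CPM. Even the lowest 393P_vector sample was far above the highest 393P_ZEB1 sample, and the third 393P_vector sample was the high value of its group, at 1.97 times the mean of the other two. The group means were 122 ± 51.8 and 1.31 ± 0.611 CPM, a log2 fold change of -6.53 ± 0.48 (edgeR adjusted p = 3.25e-05). The counts behind these values were between 5242 and 15132 in 393P_vector and between 33 and 98 in 393P_ZEB1. More than 10 reads were found on 9 of the 10 exons in each 393P_vector sample and on 1, 3 and 3 exons in the 393P_ZEB1 samples. This number falls with the count, so it does not show how many exons held reads. In cell populations measured in bulk, as here, fewer expressing cells and less RNA per cell cannot be told apart. Without 393P_vector replicate 3 the log2 fold change was -6.12, and without 393P_ZEB1 replicate 2 it was -6.79, the extremes when 1 sample was left out. On the scale of length, Epcam went from above 90.8% of the tested genes to above 19.2% of them.

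Among genes that act on or beside EpCAM, some fell as well. Of 15 relatives, proteases and signaling partners, all tested, 5 were lower, 2 were higher and 8 were not called, with a median log2 fold change of -0.21. The lower ones included St14, which encodes the protease matriptase, and its inhibitor Spint1. St14 went from 98.8 ± 26.8 to 0.424 ± 0.194 CPM (log2 fold change -7.85 ± 0.39, edgeR adjusted p = 5.29e-06), and Spint1 from 45.5 ± 5.99 to 1.2 ± 0.401 CPM (-5.24 ± 0.27, edgeR adjusted p = 6.11e-06). Cldn7, which encodes a tight junction claudin that associates with EpCAM, went from 14.4 ± 6.26 to 0.22 ± 0.0534 CPM (-6.03 ± 0.43, edgeR adjusted p = 3.03e-05).

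Muc1 encodes a transmembrane mucin of the apical surface, a heavily glycosylated protein that covers glandular epithelia. The gene lies at chr3:89229052-89233369 on the plus strand. It was measured at 4.13, 5.13 and 7.43 CPM in the 393P_vector samples and at 0.692, 0.792 and 0.884 CPM in the 393P_ZEB1 samples. The groups were well apart, with the 393P_ZEB1 values close together and 393P_vector replicate 3 again the highest of its group. The means were 5.56 ± 1.69 and 0.789 ± 0.0965 CPM, a log2 fold change of -2.81 ± 0.27 (edgeR adjusted p = 0.000142). The counts were modest, 234 to 617 in 393P_vector and 37 to 54 in 393P_ZEB1, and 4, 5 and 6 of the 7 exons had more than 10 reads in 393P_vector against 2 in every 393P_ZEB1 sample. Muc1 was the only gene with a Muc symbol on the list of mucins whose mean was above 1 CPM in either group. Of 17 other listed genes of mucins and mucin-like proteins 12 were in the tables and 5 were tested, with 2 lower, none higher and 3 not called. Mcam, an immunoglobulin adhesion molecule once called MUC18 and not a mucin protein, went from 38.4 ± 8.54 to 1.18 ± 0.0699 CPM (-5.03 ± 0.22, edgeR adjusted p = 2.68e-06).

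Ceacam1 encodes an immunoglobulin adhesion molecule of epithelial and immune cells with an inhibitory cytoplasmic tail. The gene lies at chr7:25461702-25477625 on the minus strand. Its level was low throughout, at 1.45, 1.24 and 1.73 CPM in 393P_vector and 0.916, 0.612 and 0.426 CPM in 393P_ZEB1. No 393P_ZEB1 sample reached the lowest 393P_vector sample, although the gap was narrow. The means of 1.47 ± 0.247 and 0.651 ± 0.247 CPM gave a log2 fold change of -1.19 ± 0.31 (edgeR adjusted p = 0.0194). The counts were 73 to 144 in 393P_vector and 26 to 49 in 393P_ZEB1. More than 10 reads were found on 4 of the 9 exons in every 393P_vector sample. In 393P_ZEB1 replicates 1 to 3 this held for 2, 0 and 0 exons. The call was lost without 393P_ZEB1 replicate 2 (-1.14, edgeR adjusted p = 0.0733) and without 393P_ZEB1 replicate 3 (-0.94, edgeR adjusted p = 0.0637). Of the 50-base stretches of the Ceacam1 transcripts, 29.6% were also found in the near-identical Ceacam2, whose own counts were between 1 and 7 in 393P_vector and between 0 and 3 in 393P_ZEB1. Ceacam1 also overlaps 4732471J01Rik on the opposite strand, which held 361 counts over all samples, and whether the counting used strand is not given in the sources used here. Of 8 further CEACAM and related genes 2 were tested, and Ceacam19 was lower.

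Ly6a encodes Sca-1, a small GPI-anchored protein used to sort mouse hematopoietic stem cells and lung progenitors. It lies at chr15:74994877-74998031 on the minus strand. The 393P_vector samples had 31.2, 32.1 and 38.3 CPM and the 393P_ZEB1 samples 1.98, 2.32 and 2.39 CPM. All samples were close to their group's mean, and the groups did not overlap. The means of 33.9 ± 3.85 and 2.23 ± 0.22 CPM gave a log2 fold change of -3.92 ± 0.16 (edgeR adjusted p = 2.00e-06), which stayed between -3.97 and -3.79 in the other fits. The counts were between 1766 and 3180 in 393P_vector and between 106 and 146 in 393P_ZEB1, with more than 10 reads on 4 of 8 exons in every 393P_vector sample and on 1 exon in every 393P_ZEB1 sample. Sca-1 RNA was thus among the markers that fell.

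Ly6a shares 15% of its 50-base stretches with Ly6c1 and 2.39% with Ly6i, so reads from these genes may be split among them. Ly6c1 went from 1.34 ± 0.0121 to 0.197 ± 0.0653 CPM (log2 fold change -2.76 ± 0.28, edgeR adjusted p = 0.000203). Ly6c2, Ly6i and Ly6f had between 0 and 12 counts in every sample and were not tested. Of 26 other listed genes of the Ly6 and uPAR family, 25 were in the tables and 9 were tested, with 6 lower, 1 higher and 2 not called and a median log2 fold change of -1.50. Psca, another GPI-anchored member, went from 27.4 ± 5.96 to 0.67 ± 0.161 CPM (-5.35 ± 0.26, edgeR adjusted p = 4.68e-06), and Ly6e went from 249 ± 48.1 to 87.9 ± 8.03 CPM (-1.50 ± 0.16, edgeR adjusted p = 0.00022).

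Many Ly6 family genes lie together with Ly6a on chromosome 15, and most genes tested near it were also lower. Of 25 other genes tested within 1 Mb of Ly6a, 17 were lower, 1 (Gsdmd) was higher and the median log2 fold change was -1.06. The median of chromosome 15 was -0.33. The family genes Ly6c1, Ly6e, Ly6k, Lynx1 and Psca, all lower, and Lypd2, not called, are among these 25. The counts of family and neighbourhood thus share these genes. Of the family genes tested elsewhere, Lypd6 was lower, Cd59a was higher and Plaur was not called. Around Epcam the picture was different. Of 17 other genes within 1 Mb, 4 were lower and 3 were higher, with a median of -0.19 against -0.43 for chromosome 17. Around Cd9, 18 of 40 other genes were lower and 1 (Ing4) was higher, with a median of -0.58 against -0.36 for chromosome 6, and Cd9 itself was not called. Around Muc1, 11 of 66 other genes were lower and 9 were higher, and around Ceacam1 7 of 35 were lower and 3 higher. Around Cd44 4 of 13 were lower, around Cd24a 2 of 12 and around Prom1 2 of 6, with none higher. For Aldh1a1, 1 of 5 was lower and 1 higher. The part of the neighbourhood in the values of the markers was not tested.

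**Figure D2:**
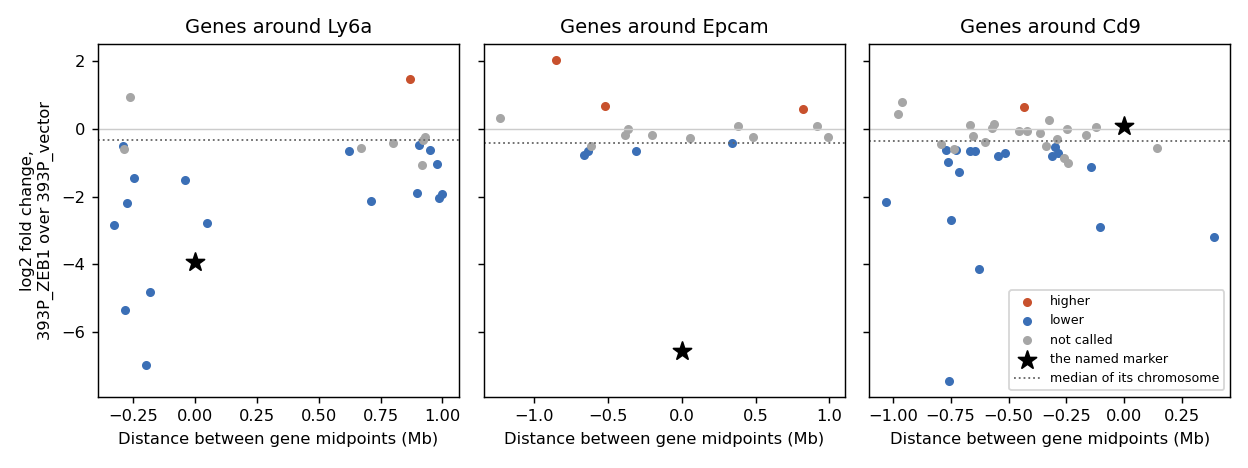
Log2 fold change of 393P_ZEB1 over 393P_vector for every tested gene within 1 Mb of the ends of Ly6a, Epcam and Cd9, against the distance between gene midpoints in Mb, with a star for the marker and a dotted line at its chromosome's median. Around Ly6a 17 of 25 genes were lower, Epcam at -6.53 lay below all its neighbours, and Cd9 at 0.08 lay among neighbours with a median of -0.58.

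Aldh1a1 encodes a cytosolic retinaldehyde dehydrogenase, which makes retinoic acid and contributes to the enzyme activity by which ALDH-positive cells are sorted. It lies at chr19:20601982-20643462 on the plus strand. Its level was 11.1, 10.8 and 10.5 CPM in 393P_vector and 97.2, 87.1 and 91.7 CPM in 393P_ZEB1. The samples of each group were close together and the groups far apart, and 393P_vector replicate 3 was not high for this gene, at 0.957 times the mean of the other two. The means were 10.8 ± 0.302 and 92.0 ± 5.05 CPM, an 8.5-fold rise with a log2 fold change of 3.09 ± 0.11 (edgeR adjusted p = 1.19e-06), between 3.04 and 3.13 in the other fits. The near-identical Aldh1a7 shares 3.06% of the 50-base stretches of Aldh1a1 and moved the other way, from 2.14 ± 0.16 to 1.28 ± 0.11 CPM (-0.74 ± 0.18, edgeR adjusted p = 0.0145).

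The other genes of the ALDH1 and retinoid list split between the directions. Of 25 listed, 20 were tested, with 7 higher, 7 lower and 6 not called and a median log2 fold change of 0.20. Aldh1a3, which encodes another retinaldehyde dehydrogenase, went from 2.76 ± 0.341 to 83.1 ± 5.28 CPM (4.91 ± 0.15, edgeR adjusted p = 6.22e-07). Rdh10, whose enzyme makes the retinaldehyde that ALDH1A proteins use, fell from 342 ± 18.4 to 107 ± 7.90 CPM (-1.68 ± 0.11, edgeR adjusted p = 1.45e-05).

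Cd24a encodes CD24, a small GPI-anchored, mucin-like glycoprotein that binds selectins and Siglecs. It lies at chr10:43579169-43584265 on the plus strand. The level was 127, 113 and 160 CPM in 393P_vector and 201, 183 and 168 CPM in 393P_ZEB1. The lowest 393P_ZEB1 sample was just above the highest 393P_vector sample, so the groups did not overlap but nearly met. The means of 134 ± 24.3 and 184 ± 16.4 CPM gave a 1.38-fold difference with a log2 fold change of 0.46 ± 0.15 (edgeR adjusted p = 0.043). The call held in 4 of 13 other fits, whose log2 fold changes ran from 0.36 to 0.61 and adjusted p from 0.000148 to 0.141. It held without 393P_vector replicate 3 (0.61, edgeR adjusted p = 0.000362) and was lost without each of the others, with edgeR adjusted p of 0.117 and 0.111 without 393P_vector replicates 1 and 2 and of 0.141, 0.11 and 0.0688 without 393P_ZEB1 replicates 1, 2 and 3. Of its 50-base stretches 2.75% were shared with Gm6212.

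Cd44 encodes the main receptor for hyaluronan, a sugar polymer of the extracellular matrix. The gene lies at chr2:102811142-102901665 on the minus strand. It was measured at 1175, 1049 and 1648 CPM in 393P_vector and at 1638, 1525 and 1404 CPM in 393P_ZEB1. The groups overlapped because 393P_vector replicate 3 was the highest of all 6 samples, while the other 393P_vector samples were the lowest. The means were 1291 ± 316 and 1522 ± 117 CPM (log2 fold change 0.24 ± 0.18, edgeR adjusted p = 0.33, exact permutation p = 0.4). Without 393P_vector replicate 3 the difference was called (0.45, edgeR adjusted p = 0.00273), as it was in limma voom with sample weights (0.39, adjusted p = 0.0019). The limma voom fit was chosen after seeing the spread of 393P_vector replicate 3. Cd44 was called in only these 2 of 13 other fits. The highest adjusted p was 0.659, from edgeR without 393P_vector replicate 2. Standard and variant isoforms of CD44 differ in their exons, and the counts are per gene and cannot separate them. All 19 exons had more than 10 reads in every sample.

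Of 19 other genes of the CD44 and hyaluronan list, 16 were tested, with 4 higher, 3 lower and 9 not called. Their median log2 fold change was 0.17. Among all genes tested, 18.3% were higher and 19.3% were lower. The lower genes of the list were Hyal1, Hyal2 and Msn. Their log2 fold changes were -2.70 ± 0.20, -0.36 ± 0.09 and -0.41 ± 0.11 (edgeR adjusted p = 3.26e-05, 0.0195 and 0.0229). Spp1, which encodes the CD44 ligand osteopontin, went from 307 ± 102 to 1351 ± 94.8 CPM (2.14 ± 0.23, edgeR adjusted p = 0.000255). Vcan, which encodes the hyaluronan-binding proteoglycan versican, went from 44.2 ± 5.67 to 140 ± 8.90 CPM (1.66 ± 0.13, edgeR adjusted p = 4.00e-05), and the hyaluronan synthase gene Has3 from 4.97 ± 0.174 to 10.1 ± 0.727 CPM (1.02 ± 0.13, edgeR adjusted p = 0.000755).

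Because CD44 and CD24 are often read together, their counts were set against each other within each sample, which needs no normalization between samples. The Cd44 count was 9.24, 9.28 and 10.3 times the Cd24a count in 393P_vector and 8.16, 8.35 and 8.36 times in 393P_ZEB1. The ratio was lower in all 393P_ZEB1 samples than in any 393P_vector sample, by -0.21 on the log2 scale (exact permutation p = 0.1, the smallest this design allows). The ratio of Cd44 to Epcam went from 12.7, 11.4 and 9.05 in 393P_vector to 2655, 865 and 902 in 393P_ZEB1. Of the 2 ratios, that to Epcam was higher in 393P_ZEB1 and that to Cd24a slightly lower.

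Cd9 encodes a tetraspanin, a membrane protein that gathers integrins and other partners into clusters. The gene lies at chr6:125460266-125494755 on the minus strand. It was measured at 269, 259 and 337 CPM in 393P_vector and 317, 329 and 272 CPM in 393P_ZEB1. The groups overlapped fully, with the highest sample in 393P_vector. The means of 289 ± 42.4 and 306 ± 29.8 CPM gave a log2 fold change of 0.08 ± 0.14 (edgeR adjusted p = 0.666, exact permutation p = 0.7), and Cd9 was called in none of 13 other fits (log2 fold change 0.02 to 0.21). Of its 50-base stretches 5.67% were found in other genes.

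Tetraspanins as a family moved in both directions. Of 28 others listed, 22 were tested, with 6 higher, 7 lower and 9 not called and a median log2 fold change of -0.05. Cd81, the tetraspanin that is closely related to Cd9, went from 148 ± 9.82 to 56.1 ± 6.02 CPM (-1.40 ± 0.12, edgeR adjusted p = 6.46e-05), and Tspan15, whose product escorts the protease ADAM10, from 31.3 ± 3.27 to 6.49 ± 0.652 CPM (-2.27 ± 0.14, edgeR adjusted p = 1.44e-05). Tspan4 went from 104 ± 1.16 to 206 ± 2.29 CPM (0.98 ± 0.09, edgeR adjusted p = 8.94e-05). Of 7 partners of tetraspanins 4 were higher, 1 was lower and 2 were not called. The lower one was the integrin subunit gene Itgb4, from 169 ± 40.9 to 81.8 ± 8.58 CPM (-1.05 ± 0.19, edgeR adjusted p = 0.00389). Hbegf, which encodes the growth factor whose precursor binds CD9, went from 261 ± 22.6 to 488 ± 13.4 CPM (0.90 ± 0.11, edgeR adjusted p = 0.000405). The laminin-binding integrin subunit gene Itga6 went from 830 ± 61.2 to 1313 ± 61.4 CPM (0.66 ± 0.11, edgeR adjusted p = 0.00226), and Igsf8 from 67.2 ± 8.68 to 125 ± 20.9 CPM (0.90 ± 0.16, edgeR adjusted p = 0.00322).

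Prom1 encodes CD133, a cholesterol-binding protein of membrane protrusions. The gene lies at chr5:43993622-44101736 on the minus strand. It had 7, 3 and 8 counts in 393P_vector and 3, 3 and 4 counts in 393P_ZEB1, or 0.124, 0.051 and 0.0963 CPM and 0.0561, 0.054 and 0.0655 CPM. Of the 6 samples 3 were at the floor of 3 counts, which was between 0.0361 and 0.0561 CPM, no exon had more than 10 reads in any sample, and no fold change is given. Of 5 related genes, all tested, 2 were higher, 2 were lower and 1 was not called. The higher ones were Ttyh2 and Ttyh3, tweety-family genes of membrane protrusions, with log2 fold changes of 0.93 ± 0.13 and 0.42 ± 0.12 (edgeR adjusted p = 0.00101 and 0.0329). Ttyh1, of the same family, was lower, from 2.12 to 0.176 CPM (-3.57, edgeR adjusted p = 0.000103). Prom2, the paralog of Prom1, went from 1.70 ± 0.617 to 0.0574 ± 0.0402 CPM (-4.81 ± 0.49, edgeR adjusted p = 0.000214).

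**Figure D3:**
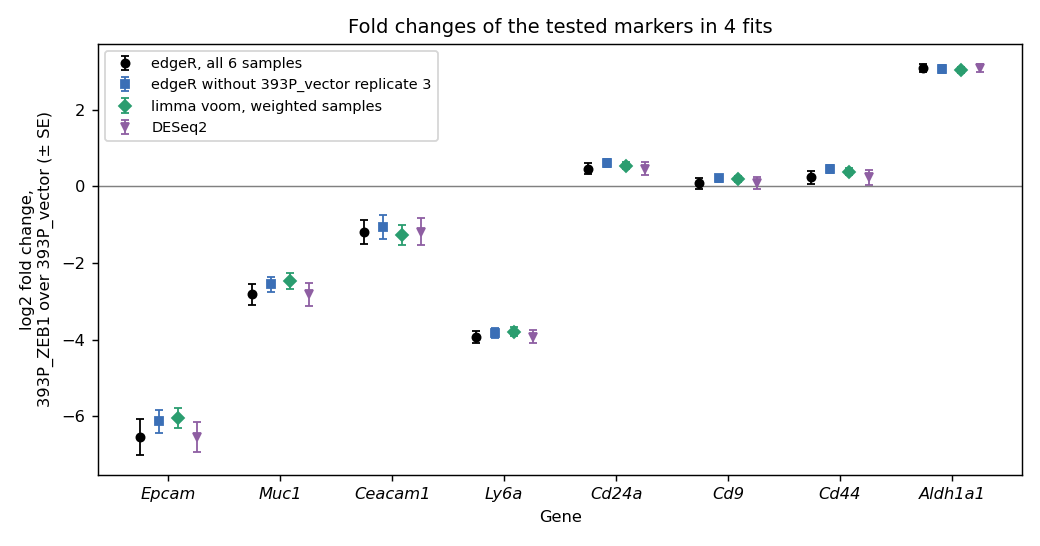
Log2 fold change of 393P_ZEB1 over 393P_vector with its SE for the 8 tested markers, in the edgeR fit of all 6 samples, the same fit without 393P_vector replicate 3, limma voom with sample weights and DESeq2. The 4 fits gave each marker the same sign, and Cd44 ran from 0.24 to 0.45.

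Of 28 other markers used for stem and progenitor cells, 23 were tested, with 7 higher, 5 lower and 11 not called and a median log2 fold change of 0.21. Abcb1a, which encodes a drug efflux pump, went from 14.2 ± 1.21 to 48.6 ± 2.00 CPM (1.78 ± 0.12, edgeR adjusted p = 1.76e-05). Dclk1, which encodes a kinase that marks tuft cells, went from 9.94 ± 0.397 to 1.62 ± 0.138 CPM (-2.62 ± 0.15, edgeR adjusted p = 9.41e-06), and Nt5e, which encodes the ectoenzyme CD73, from 14 ± 1.2 to 2.16 ± 0.235 CPM (-2.70 ± 0.16, edgeR adjusted p = 9.84e-06).

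**Figure D4:**
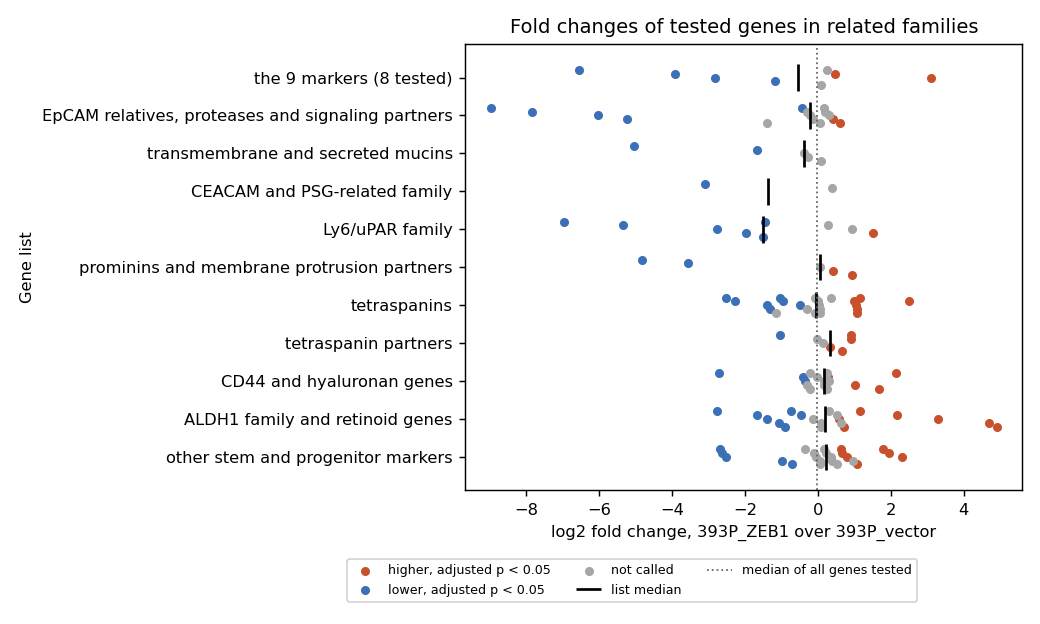
Log2 fold change of 393P_ZEB1 over 393P_vector for each tested gene of the 9 markers and of the related lists, colored by the edgeR call, with a black line at each list's median and a dotted line at the median of all genes tested, -0.02. The Ly6/uPAR list, most of whose tested genes lie within 1 Mb of Ly6a, had a median of -1.50. The tetraspanins, with a median of -0.05, spread to both sides.

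Per kilobase of exon, which allows genes to be compared, Cd9 and Cd44 were the most abundant of the 9 in both groups. In 393P_vector they stood at 244 ± 35.8 and 229 ± 56.1 CPM per kilobase and in 393P_ZEB1 at 258 ± 25.2 and 270 ± 20.8, and the difference between the pair was within the spread in both groups. Cd24a at 73.6 ± 13.4 and Epcam at 59.6 ± 25.3 followed in 393P_vector and also overlapped, then Ly6a at 33.9, Aldh1a1 at 5.36, Muc1 at 2.50, Ceacam1 at 0.396 and Prom1 at 0.0221. In 393P_ZEB1 the order after Cd44 and Cd9 was Cd24a at 101, Aldh1a1 at 45.6, Ly6a at 2.24, Epcam at 0.64 ± 0.298, Muc1 at 0.354, Ceacam1 at 0.175 and Prom1 at 0.0144 CPM per kilobase, with Epcam and Muc1 overlapping. Aldh1a1 thus moved above Ly6a and Epcam. It went from above 39.7% of the tested genes to above 86.9% of them, and Ly6a from above 81.7% to above 28.7%.

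**Figure D5:**
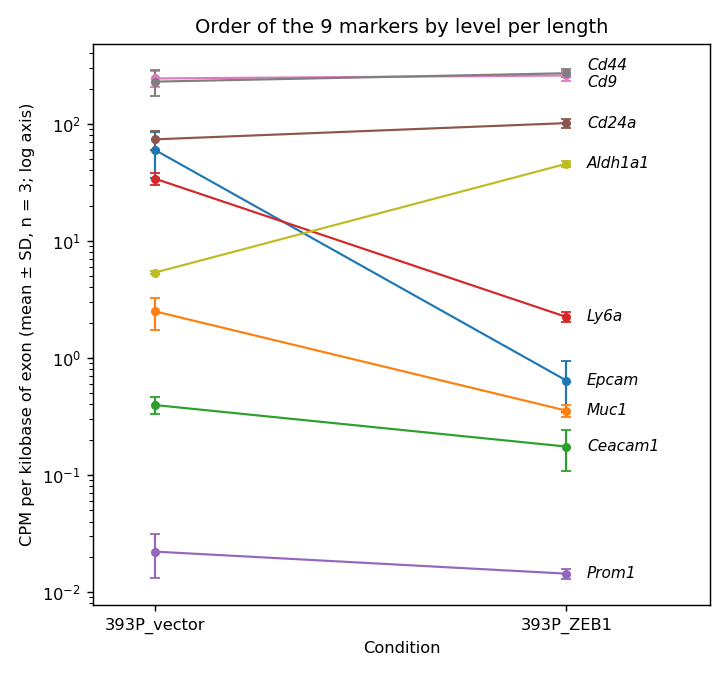
Mean level of the 9 markers in CPM per kilobase of exon, on a log axis, in 393P_vector and 393P_ZEB1, with bars for the SD of 3 samples. The line of Aldh1a1, from 5.36 to 45.6, crosses those of Epcam and Ly6a, and Cd44, Cd9 and Cd24a remain at the top.

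Among 10104 genes with a mean of at least 5 CPM, the pattern most like that of each called marker was sought by the Euclidean distance of log2 CPM, centred on each gene's mean, over the 6 samples. Nearest to Epcam were the apical polarity gene Crb3 (distance 0.722, log2 fold change -6.53) and the endocytic receptor gene Lrp2 (1.19, -6.53). The genes nearest to Muc1 were Clu (0.38) and Gadd45b (0.398), to Ly6a Arhgap8 (0.299) and Slc25a48 (0.348), and to Ceacam1 Mid2 (0.477) and Rbpms2 (0.496). The claudin gene Cldn2 (0.162, log2 fold change 2.99) and the kinase gene Lrrk2 (0.208, 3.07) were nearest to Aldh1a1, and Abi2 (0.0619) and Xiap (0.0759) to Cd24a. Distances are small for genes that changed little, so those of different markers are not comparable.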

How the data were processed

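RNA-seq libraries of total RNA from 3 samples of 393P_vector and 3 of 393P_ZEB1 were made with the SOLiD total RNA kit, per the labels. Each sample's table, as deposited by the authors, gives the raw count per RefSeq gene on GRCm38 coordinates, the RPKM (the count scaled by exon length and total reads) and the number of exons with more than 10 reads. The aligner, the counter and the use of strand are not given in the sources used here.

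Counts were analysed in R 4.3.3 with edgeR 4.0.16: filterByExpr (default minimum count 10), TMM normalization, a robust quasi-likelihood fit with a term for condition and Benjamini-Hochberg adjustment over all 13892 genes at a threshold of 0.05. Log2 fold changes are given ± SE. For edgeR this SE was derived as the absolute log2 fold change divided by the square root of the quasi-likelihood F statistic. The biological coefficient of variation was 0.184. Exact permutation tests of log2 CPM were two-sided. The deposited RPKM served as an alternative for levels per length. Alternatives used DESeq2 1.42.0 and limma 3.58.1. The procedure was tested on simulated data with few changed genes, no outlying sample and the same dispersion for every gene. That dispersion was below the common dispersion of the data. The data differ in these settings, which that test does not cover. Totals of 54442450 to 79158012 counts put 3 counts, the floor, at 0.0361 to 0.0561 CPM, which covers counting error only.

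The markers and gene lists were chosen with earlier results of these data known. Named were the 9 markers, Zeb1, near-identical copies of a marker, the 3 genes of each list with the smallest adjusted p among those called with a mean of at least 5 CPM, and the 2 genes nearest in pattern to each called marker. A gene of the retinoid list that this rule names is not reported here. Of the epithelial and mesenchymal lists the counts are given. Acta2, Ceacam19, Prom2, Ttyh1, Gsdmd, Ing4 and the lung lineage genes were named after their values were seen. So were Ly6k, Lynx1, Lypd2, Lypd6, Cd59a, Plaur, Hyal1, Hyal2, Msn and Itgb4. Promoters were taken from RefSeq on GRCm38.p6, matched by symbol for 7 of the 9 markers.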

Additional observations from a re-analysis of the deposited data

How the results depend on the processing

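The values of Epcam, Muc1, Ly6a and Aldh1a1 kept their direction and call in all 13 other fits. Cd24a lost its call with upper-quartile factors (0.44), without the filter (0.46), with at least 10 counts in every sample (0.45) and with the replicate number as a block (0.47), and ran from 0.36 to 0.61 when 1 sample was left out; the number of markers called higher was then 1, and between 1 and 3 when 1 sample was left out. Cd44 was called in limma voom with sample weights (0.39), which was chosen after seeing the spread of 393P_vector replicate 3, and ran from 0.11 to 0.45 when 1 sample was left out, Ceacam1 from -1.51 to -0.94. The markers called lower numbered 3 without 393P_ZEB1 replicate 2 or replicate 3 and 4 in the other fits. Genes called numbered 8071 in limma voom (3977 higher, 4094 lower) and between 3645 and 7476 when 1 sample was left out, against 5218. Samples with equal replicate numbers had r of deviations of 0.32, -0.242 and -0.0388, and those with unequal numbers between -0.206 and 0.246. These values do not settle whether the samples were paired. The fit with the replicate number as a block gave 4436 calls. The deposited RPKM moved none of the 18 levels per length by more than 1 SD. Without the filter, Prom1 had an edgeR adjusted p of 0.511. The causes were not tested. Depth limits Prom1, Ceacam1 and the 393P_ZEB1 values of Epcam and Muc1.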
